A study of Mus musculus with 14 samples.

Results

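The 8 genes described here encode secreted growth factors of the PDGF family (Pdgfa, Pdgfb, Pdgfc and Pdgfd) and the related VEGF family (Vegfa, Vegfb, Vegfc and Pgf), and were taken by name from the 26252 genes of the count table. All 8 were found. The RNA was that of the dorsal skin epithelium at E14.5, in wild-type mouse embryos of the C57BL/6JOlaHsd strain, when hair placodes, the epithelial thickenings that become hair follicles, lie within the interfollicular epithelium (IFE). Cells that bound an antibody to the adhesion molecule MAdCAM-1 formed the placode-enriched fraction, and cells that did not formed the IFE fraction. There were 7 placode-enriched and 7 IFE libraries, joined into 7 pairs by their title codes, and each library pooled the epithelium of 3 to 4 embryos of 1 litter. The dermis had been removed with Dispase II before the sort and was not analysed here, but transcripts of other cell types remained in the fractions and are given with the results. Total counts lay between 23.8 and 49.5 M counts (M, mega) per library, with means of 32.8 ± 8.44 M counts in placode-enriched and 33.7 ± 4.91 M counts in IFE libraries (SD, n = 7 each).

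PDGF ligands are dimers that act on receptor tyrosine kinases of mesenchymal cells. In embryonic skin Pdgfa is made by the epidermis, while its receptor gene Pdgfra is expressed by dermal fibroblasts and the dermal condensate under the placode. Pdgfc also signals through Pdgfra and needs a protease to release it from its CUB domain, whereas Pdgfb is best known as the endothelial signal that recruits pericytes through Pdgfrb. Vegfa acts on the endothelial receptors encoded by Kdr and Flt1, Vegfb and Pgf bind the product of Flt1, and Vegfc acts on that of Flt4 in lymphatic endothelium.

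The DNA just upstream of the transcription start is printed for 4 of the tested members, each with a window that holds no annotated exon: Vegfa and Pdgfc, which were higher in the placode-enriched cells, Vegfc, which was lower, and Vegfb, which did not pass the test. Each line gives the 250 bases before a RefSeq start (GRCm38.p6), from 5′ to 3′ on the gene's own strand. Capitals mark the GC box (GGGCGG, or CCGCCC on the other strand), a binding motif of Sp1-type factors, and the 2 common forms of the core bound by hypoxia-inducible factors (ACGTG and GCGTG, or CACGT and CACGC on the other strand).
Vegfa, chr17:46032378-46032627, minus strand: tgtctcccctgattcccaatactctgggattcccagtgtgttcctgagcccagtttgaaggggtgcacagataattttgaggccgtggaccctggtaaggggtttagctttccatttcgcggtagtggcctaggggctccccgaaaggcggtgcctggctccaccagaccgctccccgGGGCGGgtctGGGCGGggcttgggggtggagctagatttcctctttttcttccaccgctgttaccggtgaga
Pdgfc, chr3:81036166-81036415, plus strand: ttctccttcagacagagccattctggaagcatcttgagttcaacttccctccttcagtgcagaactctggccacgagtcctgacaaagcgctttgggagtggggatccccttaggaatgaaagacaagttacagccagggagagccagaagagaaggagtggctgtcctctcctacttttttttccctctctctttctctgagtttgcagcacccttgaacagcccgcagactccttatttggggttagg
Vegfc, chr8:54077282-54077531, plus strand: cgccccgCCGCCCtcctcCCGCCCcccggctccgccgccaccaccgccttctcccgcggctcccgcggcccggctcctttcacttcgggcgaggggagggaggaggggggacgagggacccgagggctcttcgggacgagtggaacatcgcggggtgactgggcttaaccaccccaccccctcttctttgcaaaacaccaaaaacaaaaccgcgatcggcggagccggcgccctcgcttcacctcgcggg
Vegfb, chr19:6987652-6987901, minus strand: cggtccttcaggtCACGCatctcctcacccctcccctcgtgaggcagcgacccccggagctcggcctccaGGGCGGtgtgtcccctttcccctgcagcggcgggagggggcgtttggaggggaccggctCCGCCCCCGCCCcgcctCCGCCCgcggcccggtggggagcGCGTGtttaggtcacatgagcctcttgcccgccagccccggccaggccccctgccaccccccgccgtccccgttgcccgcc

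The Vegfa window held 2 GC boxes, which began 72 and 62 bases before the start, and none of the hypoxia core motifs. A window before another RefSeq start of Vegfa, within the gene and not shown, held 1 GC box and 2 hypoxia cores. The Pdgfc window held none of these motifs and was 50.8% G or C, against a median of 52.4% over 32851 RefSeq promoter windows. The Vegfc window held 2 GC boxes and was 71.6% G or C, and the Vegfb window held 4 GC boxes and 2 hypoxia cores and was 76.4% G or C. Of the 32851 windows, 32.7% held a GC box on either strand and 38.6% a hypoxia core of either form. No match overlapped another, though 2 of the Vegfb boxes adjoined. These are matches of letters within 250 bases and say nothing of sites elsewhere. Of the 8 members, 7 had a RefSeq promoter window, and the windows of Pdgfa and Pgf, which overlapped annotated exons, are not shown. The Pdgfd window, free of exons and with none of these motifs (53.6% G or C), is not shown because the gene was too low to test.

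Of the 7 members that passed the low-count filter, the placode-enriched fraction had more of 5 and less of 1, and 1 did not pass the test (edgeR quasi-likelihood fit blocked by pair, Benjamini-Hochberg adjusted p under 0.05). Over all 15382 genes tested, 15.5% were called higher, 15.6% lower and 31.1% in either direction. The median log2 fold change was 0.49 over the 7 tested members and -0.02 over all tested genes. In 4 of the 7 members (Pdgfa, Pdgfb, Pdgfc and Pgf) every placode-enriched library lay above every IFE library, an arrangement that 7.46% of all tested genes showed in that direction. The reverse arrangement was seen in 0 members and in 7.29% of all tested genes. Pdgfd had too few reads to be tested. In pooled cells, fewer cells that make a transcript and less of it per cell cannot be told apart.

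**Figure D1:**
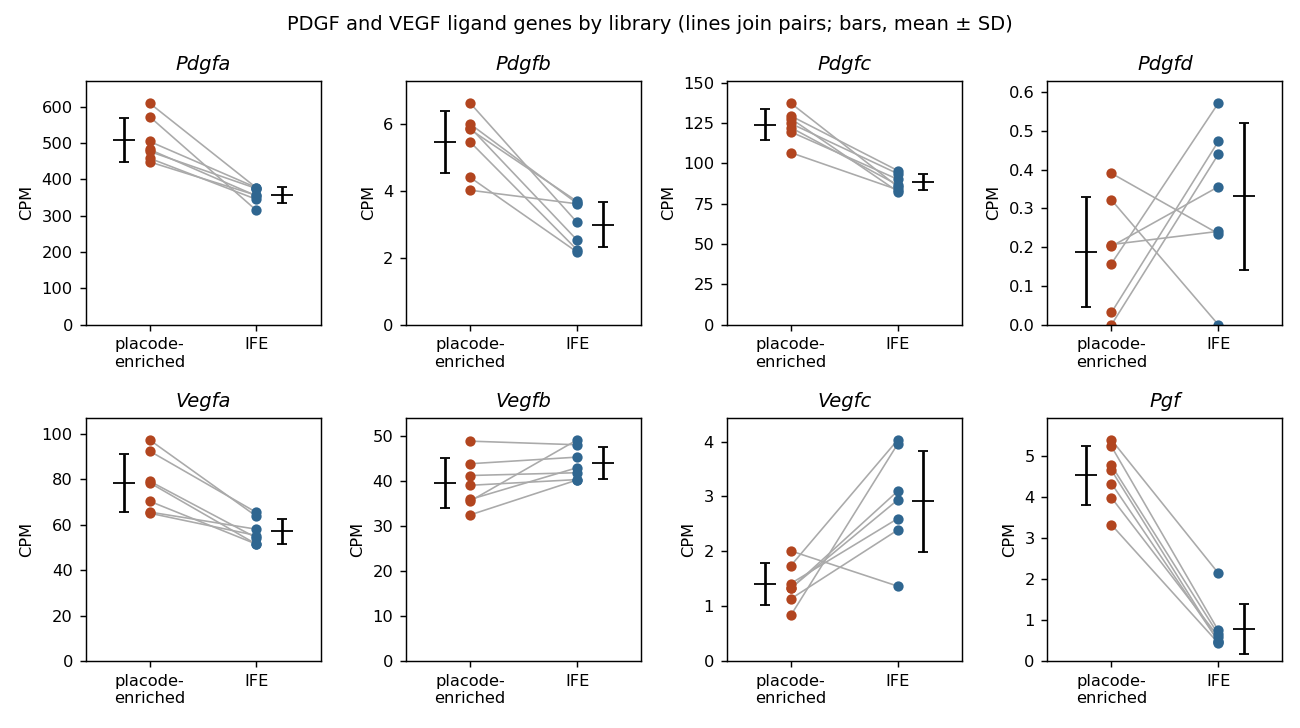
Counts scaled to library size (CPM) of the 8 ligand genes in each library, placode-enriched on the left and IFE on the right of each panel; points are libraries, lines join the 2 libraries of a pair, and bars give the mean ± SD (n = 7 each). All 7 lines fall toward IFE for Pdgfa, Pdgfb, Pdgfc, Vegfa and Pgf, 6 of 7 rise for Vegfc, and those of Pdgfd cross.

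Pdgfa (ENSMUSG00000025856; GRCm38 chromosome 5, 138976014 to 138997370, minus strand), the epidermal ligand for Pdgfra, was the most abundant member in both fractions. Levels are given as CPM, counts relative to library size after TMM scaling. Its lowest, median and highest levels were 448, 482 and 609 CPM in placode-enriched libraries, against 314, 356 and 377 CPM in IFE libraries. The lowest placode-enriched library thus lay above the highest IFE library. The means were 507 ± 60.8 CPM in placode-enriched cells, against 357 ± 22.6 CPM in IFE cells (SD, n = 7 each), a log2 fold change of 0.50 ± 0.08 (approximate SE; edgeR adjusted p = 0.000241), or 1.42-fold. Single pairs differed by 0.33 to 0.86 on the log2 scale, with the largest difference in pair 7. The antisense gene 6330403L08Rik shares 813 exon bases with Pdgfa, and the strand setting of the counting is not given in the sources used here. That gene stood at 20.9 ± 5.97 CPM in placode-enriched cells, against 13.9 ± 2.93 CPM in IFE cells, far below Pdgfa itself. Its level does not bound the effect of the overlap on the Pdgfa count, which was not tested.

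Pdgfc (ENSMUSG00000028019; chromosome 3, 81036416 to 81214040, plus strand), the protease-activated ligand for Pdgfra, was the second PDGF gene in level. It ranged from 107 to 137 CPM with a median of 125 CPM in placode-enriched libraries, against 82.5 to 95.5 CPM with a median of 86.6 CPM in IFE libraries. The fractions did not overlap, and the spread within each was small, with a coefficient of variation of 7.70% in placode-enriched and 5.64% in IFE libraries. The log2 fold change was 0.49 ± 0.07 (edgeR adjusted p = 8.03e-05), with pair differences of 0.35 to 0.68. Pdgfc shares 147 exon bases with the antisense gene Gm16000, which averaged 0.146 CPM in placode-enriched cells, against 0.155 CPM in IFE cells. The effect of that overlap on the Pdgfc count was not tested either.

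Pdgfb (ENSMUSG00000000489; chromosome 15, 79995874 to 80014977, minus strand), the pericyte-recruiting ligand, was expressed at a low level in both fractions. Its lowest, median and highest levels were 4.02, 5.83 and 6.61 CPM in placode-enriched libraries, from 136 to 307 reads each, against 2.17, 3.05 and 3.68 CPM in IFE libraries, from 78 to 120 reads each. The fractions again did not overlap. The means were 5.45 ± 0.926 CPM in placode-enriched cells, against 2.98 ± 0.673 CPM in IFE cells (SD, n = 7 each). The log2 fold change was 0.88 ± 0.19 (edgeR adjusted p = 0.00267). The placode-enriched library was the higher in 7 of 7 pairs, by as little as 0.15 on the log2 scale in pair 7 and by as much as 1.26. Endothelial cells also express Pdgfb: 10 endothelial markers summed to 3.78 to 7.36 CPM in placode-enriched cells, against 2.48 to 6.39 CPM in IFE cells, higher in 5 of 7 pairs (exact sign-flip permutation test, adjusted p = 0.141). Of the 2 that could be tested, Pecam1, an adhesion molecule of endothelium and blood cells, was called higher (1.83 CPM in placode-enriched cells, against 0.493 CPM in IFE cells; log2 2.15; edgeR adjusted p = 0.00215). The other, Egfl7, a secreted endothelial protein, stood at 2.79 CPM in placode-enriched cells, against 3.47 CPM in IFE cells, lower in 5 of 7 pairs, and did not pass (log2 -0.32; edgeR adjusted p = 0.335). The defining genes Cdh5 and Emcn had 4 and 3 reads in all placode-enriched libraries and 0 in all IFE libraries. The part of such cells in the Pdgfb result was not tested.

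Pdgfd (ENSMUSG00000032006; chromosome 9, 6168584 to 6378850, plus strand), the other ligand with a CUB domain, which acts mainly through Pdgfrb, was close to the limit of detection. Its 7 placode-enriched libraries held 0 to 20 reads (47 in all) and its 7 IFE libraries likewise 0 to 20 reads (82 in all). The medians were 0.202 CPM in placode-enriched cells, against 0.356 CPM in IFE cells, and the ranges overlapped. The placode-enriched library of pair 5 and the IFE library of pair 1 had 0 reads, which allows up to 0.0976 CPM in the placode-enriched and 0.128 CPM in the IFE library (3 counts). Without the low-count filter its log2 fold change was -0.95 (edgeR adjusted p = 0.646), and in the 4 pairs whose codes do not begin with 27-7 it was 0.15 (edgeR adjusted p = 0.945), so a difference was not detectable at this depth.

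Vegfa (ENSMUSG00000023951; chromosome 17, 46016993 to 46032369, minus strand), the main vascular growth factor, was higher in the placode-enriched library of all 7 pairs. Its lowest, median and highest levels were 65.2, 78.5 and 97.4 CPM in placode-enriched libraries, against 51.5, 55.3 and 65.5 CPM in IFE libraries. The ranges touched only at their ends, where the lowest placode-enriched library (pair 2) lay just under the highest IFE library (pair 7). The means were 78.4 ± 12.7 CPM in placode-enriched cells, against 57.1 ± 5.61 CPM in IFE cells, which gave a fitted log2 difference of 0.45 ± 0.08 (edgeR adjusted p = 0.000526). Pair differences ran from 0.18 in pair 3 to 0.61 in pair 6. Counts per gene do not separate the splice forms of Vegfa, which differ in how they bind to matrix.

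Pgf (ENSMUSG00000004791; chromosome 12, 85166635 to 85177790, minus strand), which encodes placental growth factor, a ligand for the Flt1 product, showed the widest difference of the members, at a low level. It ranged from 3.32 to 5.39 CPM with a median of 4.65 CPM in placode-enriched libraries, from 99 to 276 reads each, against 0.445 to 2.15 CPM with a median of 0.599 CPM in IFE libraries, from 14 to 64 reads each. Every placode-enriched library lay above every IFE library. The means were 4.52 ± 0.718 CPM in placode-enriched cells, against 0.796 ± 0.605 CPM in IFE cells (SD, n = 7 each). The log2 fold change was 2.69 ± 0.28 (edgeR adjusted p = 6.44e-06), or 6.47-fold. The IFE library of pair 3 stood apart at 2.15 CPM, while the next highest IFE library was at 0.752 CPM. Without pair 3 the log2 fold change was 2.94 (edgeR adjusted p = 1.56e-06).

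Vegfb (ENSMUSG00000024962; chromosome 19, 6982473 to 6987651, minus strand), another ligand for the Flt1 product, did not pass the test. It stood at 32.6, 39.1 and 48.9 CPM (lowest, median, highest) in placode-enriched libraries, against 40.3, 43.0 and 49.2 CPM in IFE libraries, so that the fractions overlapped over most of their range. The log2 fold change was -0.16 ± 0.08 (edgeR adjusted p = 0.167), with the placode-enriched library lower in 6 of 7 pairs.

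Vegfc (ENSMUSG00000031520; chromosome 8, 54077606 to 54187096, plus strand), the lymphatic growth factor, was the only member called lower. It ranged from 0.839 to 2.01 CPM with a median of 1.33 CPM in placode-enriched libraries, from 36 to 59 reads each, against 1.37 to 4.03 CPM with a median of 2.94 CPM in IFE libraries, from 32 to 134 reads each. The fractions overlapped through pair 1, in which the placode-enriched library had its highest value (2.01 CPM) and the IFE library its lowest (1.37 CPM). The means were 1.4 ± 0.383 CPM in placode-enriched cells, against 2.91 ± 0.924 CPM in IFE cells (SD, n = 7 each). The log2 fold change was -1.05 ± 0.31 (edgeR adjusted p = 0.0201), and the placode-enriched library was lower in 6 of 7 pairs. Leaving out pair 4 or pair 7 ended the call at adjusted p of 0.0615 and 0.0613, with values of -1.01 and -1.0.

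**Figure D2:**
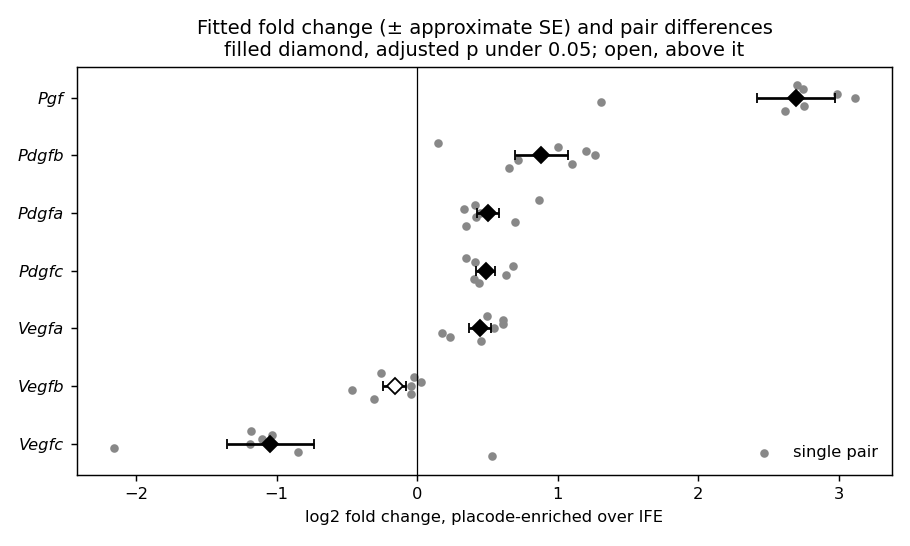
Log2 fold change of placode-enriched over IFE for the 7 tested ligand genes; diamonds with bars are fitted values ± approximate SE, filled where the adjusted p was under 0.05, and grey points are the differences of single pairs. Pdgfa, Pdgfc and Vegfa sit near 0.5, Pgf at 2.69 with pair 3 apart at 1.30, and Vegfc at -1.05 with pair 1 on the other side of 0.

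Levels of different genes were compared as CPM per kilobase of exon, with all annotated exons of a gene merged. In placode-enriched libraries the order of mean length-scaled levels was Pdgfa (163 ± 19.5), Vegfb (24.7 ± 3.48), Pdgfc (24.3 ± 1.87), Vegfa (18.3 ± 2.95), Pgf (1.56 ± 0.25), Pdgfb (1.31 ± 0.22), Vegfc (0.572 ± 0.157) and Pdgfd (0.0593 ± 0.0448) CPM per kilobase (SD, n = 7). Vegfb and Pdgfc did not differ beyond their spread (mean log2 ratio 0.01, exact sign-flip permutation test, two-sided p = 0.859), and their order turned round when the longest transcript was used as the length. Of the 7 neighbours in that order, the other 6 passed after adjustment over 14 comparisons, with adjusted p of 0.0219 or 0.0365. In both fractions the neighbours were picked by their order in the same libraries. The p-values allow neither for that choice nor for error in the exon length. The ranges of Pdgfc and Vegfa overlapped, as did those of Pgf and Pdgfb, which kept their order in 6 of 7 libraries each.

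In IFE libraries the order of mean length-scaled levels was Pdgfa (114 ± 7.24), Vegfb (27.5 ± 2.25), Pdgfc (17.3 ± 0.978), Vegfa (13.3 ± 1.31), Vegfc (1.19 ± 0.38), Pdgfb (0.717 ± 0.162), Pgf (0.274 ± 0.208) and Pdgfd (0.105 ± 0.0603) CPM per kilobase (SD, n = 7). Both fractions therefore shared the first 4 places and the last, and Pgf stood just above Pdgfb in placode-enriched libraries but below it in IFE libraries. Vegfc and Pdgfb were the only IFE neighbours that did not pass (mean log2 ratio 0.69, exact two-sided p = 0.0469, adjusted 0.0505), and their ranges overlapped. The ranges of Pdgfb and Pgf, and those of Pgf and Pdgfd, overlapped too, although each kept its order in 7 of 7 libraries. The smallest exact p that 7 libraries allow is 0.0156.

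**Figure D3:**
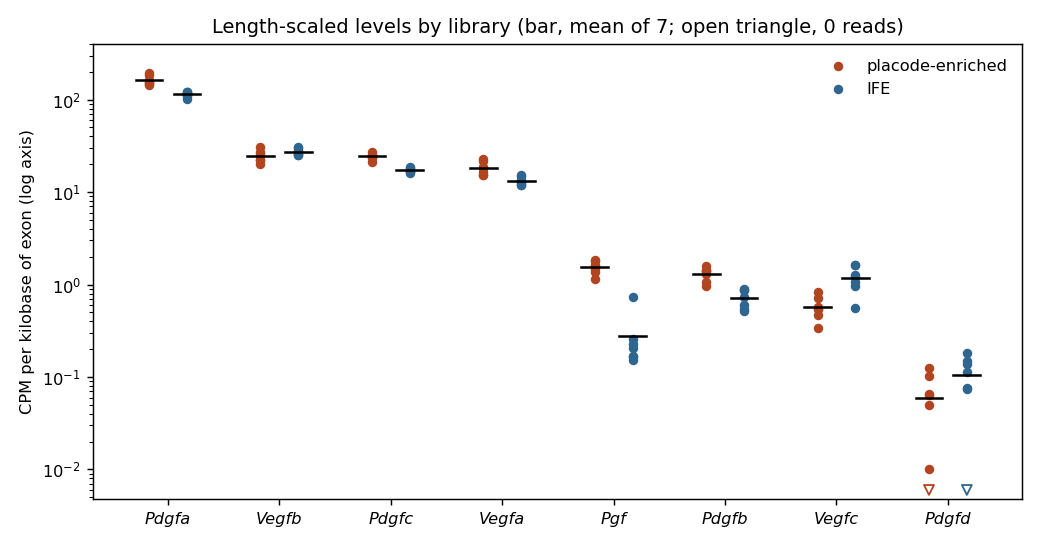
Length-scaled levels of the 8 ligand genes in CPM per kilobase of exon on a log axis, in the order of their means in placode-enriched libraries; points are libraries, bars are means of 7, and open triangles mark libraries with 0 reads. Pdgfa lies well above the rest, Vegfb, Pdgfc and Vegfa form a middle band, and Pgf, Pdgfb, Vegfc and Pdgfd reach at most 1.86 CPM per kilobase in any library.

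As shares of their family, Pdgfa and Pdgfc stood at nearly the same values in both fractions. Pdgfa made up 86.2% ± 2.06 of the length-scaled sum of the 4 PDGF genes in placode-enriched libraries and 86.3% ± 0.82 in IFE libraries (SD, n = 7 each). Pdgfc made up 13.1% ± 1.98 in placode-enriched and 13.1% ± 0.82 in IFE libraries. Pdgfb made up 0.700% in placode-enriched and 0.542% in IFE libraries, and Pdgfd 0.0312% in placode-enriched and 0.0794% in IFE libraries. Vegfa held 36.0 to 46.4% of the length-scaled sum of the 4 VEGF family genes in placode-enriched libraries, against 27.7 to 35.3% in IFE libraries, and these ranges did not overlap. Vegfb held 48.2 to 60.0% in placode-enriched libraries, against 60.9 to 69.1% in IFE libraries. Pgf held 3.51% ± 0.77 in placode-enriched libraries, against 0.635% ± 0.430 in IFE libraries, and Vegfc held 1.29% ± 0.43 in placode-enriched libraries, against 2.78% ± 0.75 in IFE libraries. These shares restate the levels above and were given no test of their own.

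The kinase receptors of these ligands were nearly absent from both epithelial fractions, while the neuropilin co-receptors were present. Of 8 receptor and co-receptor genes, 4 passed the low-count filter, of which 3 were higher and 1 did not pass the test. Among all tested genes, 15.5% were called higher and 15.6% lower. Nrp2, a co-receptor for VEGF and semaphorins, stood at 118 ± 20.3 CPM in placode-enriched cells, against 3.21 ± 0.75 CPM in IFE cells (log2 5.20 ± 0.17; edgeR adjusted p = 1.36e-10). Nrp1, the related co-receptor, stood at 5.84 ± 1.15 CPM in placode-enriched cells, against 3.23 ± 0.889 CPM in IFE cells (log2 0.88 ± 0.22; edgeR adjusted p = 0.00835). Pdgfrl, a PDGF receptor-like gene whose product has no kinase domain, stood at 1.79 ± 0.655 CPM in placode-enriched cells, against 0.274 ± 0.265 CPM in IFE cells (log2 3.14 ± 0.63; edgeR adjusted p = 0.00176). Its placode-enriched libraries held 30 to 140 reads (442 in all) and its IFE libraries 0 to 20 (60 in all). Pdgfrl thus passed the low-count filter through the fraction where it was high, which limits the count of 3 called higher.

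The kinase receptors were near the limit of detection. Pdgfra, the receptor of Pdgfa and Pdgfc, had 109 reads over the 7 placode-enriched libraries and 99 over the 7 IFE libraries (log2 0.06 ± 0.75; edgeR adjusted p = 0.963). Pdgfrb had 69 reads in placode-enriched and 77 in IFE libraries. The VEGF receptor genes Flt1, Kdr and Flt4 had 25, 49 and 17 reads over the placode-enriched libraries, and 7, 4 and 9 over the IFE libraries. Flt1 was at 0 in 6 of 7 libraries of each fraction, and 1 placode-enriched library held 41 of the 49 Kdr reads. Vegfd, the VEGF family ligand not listed among the 8, had 254 reads in placode-enriched and 255 in IFE libraries (log2 0.18 ± 0.55; edgeR adjusted p = 0.851).

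Genes that process or bind these ligands differed in both directions. All 15 on the list were tested: 7 passed as higher and 3 as lower, while 5 did not pass. Of all tested genes, 15.5% were called higher and 15.6% lower. The median log2 fold change was 0.48 over the list, against -0.02 over all tested genes. Among proteases, Adamts3, which activates VEGF-C, rose (5.77 ± 1.24 CPM in placode-enriched cells, against 0.485 ± 0.258 CPM in IFE cells; log2 3.63 ± 0.32; edgeR adjusted p = 1.35e-06). Ccbe1, the cofactor of that step, had a log2 fold change of 1.06 ± 0.43 and did not pass (edgeR adjusted p = 0.0774). Plat, tissue plasminogen activator, which cleaves PDGF-CC, rose as well (1.58 ± 0.615 CPM in placode-enriched cells, against 0.315 ± 0.282 CPM in IFE cells; log2 2.50 ± 0.66; edgeR adjusted p = 0.0109). In their lowest IFE libraries Adamts3 and Plat stood at 0.134 and 0 CPM. Both thus passed the low-count filter through the placode-enriched fraction, where they were high. Plau, urokinase, which cleaves PDGF-DD, fell (5.44 ± 1.09 CPM in placode-enriched cells, against 15.6 ± 3.24 CPM in IFE cells; log2 -1.51 ± 0.13; edgeR adjusted p = 1.25e-06).

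The proprotein convertases, which trim several of these precursors, went apart. Furin rose (log2 0.49 ± 0.10; edgeR adjusted p = 0.00304) and Pcsk6 fell (14.1 ± 1.25 CPM in placode-enriched cells, against 52.7 ± 3.00 CPM in IFE cells; log2 -1.90 ± 0.08; edgeR adjusted p = 2.01e-09), while Pcsk5 (-0.20 ± 0.16) and Pcsk7 (-0.14 ± 0.10) did not pass. Of the matrix proteins that bind VEGF or PDGF, Ccn2 (log2 2.15 ± 0.08), Thbs2 (0.82 ± 0.11), Hspg2 (0.55 ± 0.13) and Thbs1 (0.48 ± 0.09) rose, and Sparc fell (-0.24 ± 0.07; edgeR adjusted p = 0.0163). Hspg2, which encodes perlecan, stood at 833 ± 325 CPM in placode-enriched cells, against 545 ± 102 CPM in IFE cells, and was higher in 6 of 7 pairs (edgeR adjusted p = 0.00524).

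Vegfa is a textbook target of hypoxia-inducible factors (HIF). Of 25 HIF factors, oxygen sensors and common targets, 23 were tested: 4 passed as higher and 5 as lower, while 14 did not pass. Their median log2 fold change was -0.03. Over all tested genes, 15.5% were called higher and 15.6% lower, with a median of -0.02. Hif1a stood at 193 ± 35.9 CPM in placode-enriched cells, against 202 ± 25.7 CPM in IFE cells (log2 -0.07 ± 0.11; edgeR adjusted p = 0.662). The members called higher were P4ha1 (0.53 ± 0.09), P4ha2 (0.52 ± 0.10), Bnip3 (0.48 ± 0.12) and Pfkfb4 (0.56 ± 0.18), of which the first 2 encode prolyl hydroxylases of collagen, Bnip3 a mitophagy receptor and Pfkfb4 a regulator of glycolysis. Those called lower were Epas1 (-4.30 ± 0.35), Ndrg1 (-0.72 ± 0.09), Ldha (-0.43 ± 0.06), Pdk1 (-0.26 ± 0.07) and Egln3 (-0.44 ± 0.15). Ldha encodes a lactate dehydrogenase subunit, Pdk1 a kinase that inhibits pyruvate dehydrogenase, and Egln3 an oxygen-sensing prolyl hydroxylase. The untested Adm had 39 reads in placode-enriched and 0 in IFE libraries, and Car9 had 3 in placode-enriched and 25 in IFE libraries. Epas1, which encodes HIF-2 alpha, stood at 0.450 ± 0.350 CPM in placode-enriched cells, against 8.0 ± 1.65 CPM in IFE cells. The number of these genes called lower was 3 without pair 6 and 3 with library size as the only scaling. Those fits called 2017 and 2058 of all tested genes lower, against 2402 in the main fit.

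**Figure D4:**
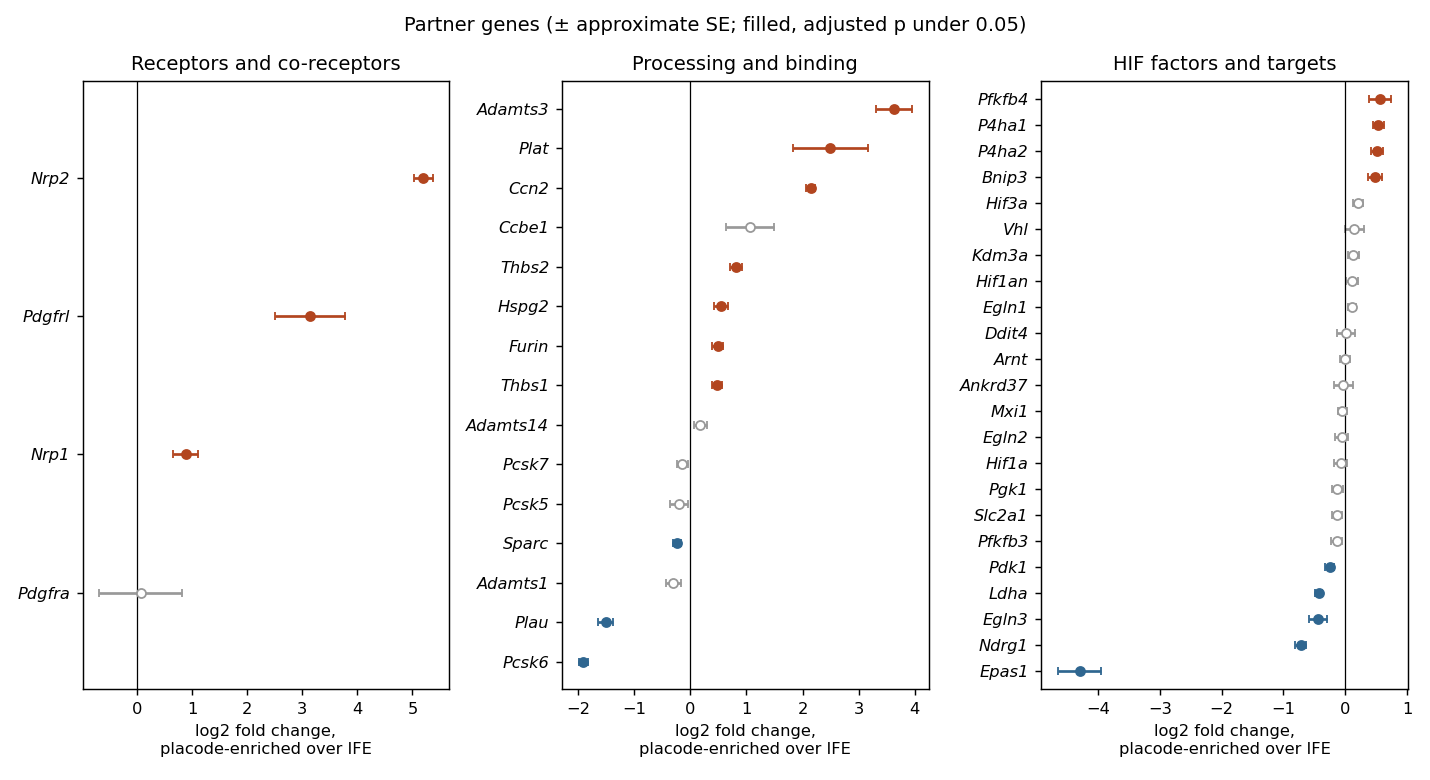
Log2 fold change of placode-enriched over IFE ± approximate SE for the tested receptors, processing and binding genes, and HIF genes; filled points had an adjusted p under 0.05 (red higher, blue lower), open grey points did not. Nrp2 reaches 5.20 and Adamts3 3.63, and most HIF genes lie near 0 with Epas1 apart at -4.30.

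The sort and the presence of other cells were read from marker lists, as summed CPM per library. Madcam1, which encodes the sorted protein, had a log2 fold change of 6.45 and serves as a check only. The 10 placode markers summed to 1152 to 1770 CPM in placode-enriched cells, against 199 to 280 CPM in IFE cells, 10 suprabasal markers to 207 to 464 CPM in placode-enriched cells, against 2879 to 4510 CPM in IFE cells, and 6 markers of basal epithelium to 5007 to 6422 CPM in placode-enriched cells, against 5872 to 7306 CPM in IFE cells. The sum of the 10 fibroblast genes was 1104 to 1895 CPM in placode-enriched cells, against 927 to 1260 CPM in IFE cells, with all 7 pairs in that direction (exact sign-flip permutation test, two-sided p = 0.0156, or 0.0201 adjusted over 9 lists), mostly from Postn (1042 CPM in placode-enriched cells, against 745 CPM in IFE cells) and Dcn (498 CPM in placode-enriched cells, against 258 CPM in IFE cells). On the same list Col1a2 was called higher (28 CPM in placode-enriched cells, against 11.8 CPM in IFE cells). The collagen genes Col1a1 (0.524 CPM in placode-enriched cells, against 4.2 CPM in IFE cells; log2 -2.49; edgeR adjusted p = 0.0395) and Col6a3 (1.44 CPM in placode-enriched cells, against 4.98 CPM in IFE cells; log2 -1.78; edgeR adjusted p = 0.000483) were called lower. The untested fibroblast genes Twist2 and Dpt were at 0.00574 and 0.0900 CPM in placode-enriched cells, against 0.171 and 0.00408 CPM in IFE cells. Sums of 6 pericyte-list genes were 46.2 to 124 CPM in placode-enriched cells, against 165 to 300 CPM in IFE cells, and came mostly from 2 genes that went opposite ways. Notch3 fell (43.6 CPM in placode-enriched cells, against 214 CPM in IFE cells; log2 -2.32; edgeR adjusted p = 3.72e-09) and Cspg4 rose (37.4 CPM in placode-enriched cells, against 13.7 CPM in IFE cells; log2 1.44; edgeR adjusted p = 5.60e-05), while the defining Rgs5 and Kcnj8 stood at 0.108 and 0.0211 CPM in placode-enriched cells, against 0.0850 and 0.0452 CPM in IFE cells.

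Melanoblast markers summed to 8.31 to 14.6 CPM in placode-enriched cells, against 124 to 222 CPM in IFE cells, and nerve markers to 82.1 to 112 CPM in placode-enriched cells, against 145 to 159 CPM in IFE cells. Macrophage markers summed to 4.46 to 9.92 CPM in placode-enriched cells, against 7.39 to 10.3 CPM in IFE cells. This sum came mostly from Cd68 (5.49 CPM in placode-enriched cells, against 4.27 CPM in IFE cells) and Cx3cr1 (1.24 CPM against 3.99 CPM). Adgre1 and Ptprc stood at 0.00279 and 0.0506 CPM in placode-enriched cells, against 0.0215 and 0.116 CPM in IFE cells. Erythroid markers summed to at most 0.0866 CPM in placode-enriched cells, against 0.879 CPM in IFE cells. The suprabasal, melanoblast, pericyte, nerve and basal epithelial sums were each lower in the placode-enriched library of all 7 pairs, the direction of Vegfc (exact sign-flip permutation test, adjusted p = 0.0201 each). The placode and fibroblast sums were higher in all 7 pairs, the direction of the 5 ligands called higher. The fibroblast sum came mostly from Postn and Dcn, and single fibroblast genes went both ways. Of the marker genes tested, 10 of 10 placode genes were called higher. Called lower were 9 of 10 suprabasal, 8 of 8 melanoblast, 3 of 6 nerve and 1 of 2 macrophage genes. Of 8 fibroblast genes 3 were called higher and 2 lower. Of 6 basal epithelial genes, Krt14, Epcam and Trp63 were called higher and Krt5, Krt15 and Cdh1 lower. The shares over all tested genes were 15.5% higher and 15.6% lower. The part of such cells in these results was not tested.

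The difference between fractions was also read within the 3 pairs with a title code beginning 27-7 and within the other 4 pairs, since the codes are the only possible batch in the labels. Pdgfa differed by 0.54 in the 27-7 pairs and 0.48 in the others, Pdgfc by 0.49 and 0.49, Vegfa by 0.58 and 0.35, and Pgf by 2.94 and 2.51, and these 4 passed in each set (largest edgeR adjusted p = 0.0453, for Vegfa in the other pairs). Pdgfb passed in the other pairs (0.95; edgeR adjusted p = 0.0209) but not in the 27-7 pairs (0.80; edgeR adjusted p = 0.159). Vegfc passed in neither (-1.14 in the 27-7 pairs and -0.97 in the other pairs; edgeR adjusted p = 0.0727 and 0.2). Tests of the difference between the sets gave adjusted p from 0.902 to 0.993 for the 7 members. Over all 15382 genes the edgeR interaction test called 0 genes (0%), with 528 (3.43%) at an unadjusted p under 0.05, and limma-voom also called 0.

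For each called member the 3 genes with the most similar pattern over the 14 libraries were found among 9090 genes with a mean of at least 10 CPM, by Pearson's r of log2 CPM. The 14 libraries fall into 2 fractions, so r includes the difference between them, and the values are descriptions of the best of many. Pdgfa was most like Pimreg (0.98), Kctd12 (0.98) and Pfn2 (0.96), Pdgfb like Ppdpf (0.94), Aurka (0.91) and Dync2li1 (0.90), and Pdgfc like Dbn1 (0.96), Ltb (0.95) and Lbh (0.95). Vegfa was most like Ucp2 (0.93), Tcf7 (0.91) and Cdc25b (0.91), Vegfc like Spint1 (0.94), Mapk3 (0.92) and Srd5a1 (0.92), and Pgf like Maged1 (0.98), Bcar3 (0.97) and Wif1 (0.96). Within single fractions these values ran lower for some pairs of genes, such as 0.16 between Pgf and Maged1 in the 7 placode-enriched libraries and 0.04 between Pdgfc and Lbh in the 7 IFE libraries.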

How the data were processed

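The authors deposited 1 table of whole-number read counts by Ensembl gene identifier, which carry no normalization. Per the submitters' processing notes, the tools used were bcl2fastq, Trimmomatic, STAR and HTSeq, with build GRCm38. For the annotation release, strand setting and duplicate handling, nothing is given in the sources used here. Since amplified reads are not independent molecules, limits for 0 reads cover counting error only. Per the labels' protocols, libraries were made from total RNA of sorted live cells with the Ovation SoLo kit.

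Symbols, positions and exon lengths came from GENCODE M21 (GRCm38), which matched 25949 of 26252 identifiers (the other 303 held 0.436% of counts). edgeR 4.0.16 with limma 3.58.1 (R 4.3.3) removed low counts with filterByExpr, leaving 15382 genes, scaled libraries by TMM and ran robust quasi-likelihood tests with the pair as a block, adjusted by Benjamini-Hochberg at 0.05. Fold changes use a prior count of 0.125, pair differences one of 2, and SEs are the coefficient over the square root of F. TMM-scaled library sizes also underlie the CPM. Tables and figures used Python 3.11.15, pandas 2.3.3, numpy 2.4.6 and matplotlib 3.10.9. Methods were tested on simulated data.

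The pairing follows the series' design, with each title code borne by 2 libraries. The mean correlation of same-pair deviations was 0.0548 (-0.132 to 0.195). Whether pairs share a litter or day is not stated, so the p-values refer to the spread among these pools only. Alternatives were no pair block, other scalings and filters, DESeq2 1.42.0, limma-voom, a non-robust fit, leaving out single pairs, either set of title codes by itself and a threshold of 0.01. Partner genes were named by a rule: every receptor, up to 4 genes per direction with the smallest adjusted p of the other lists, and some others beside them, such as Ccbe1, Furin, Plat, Hspg2, Egln3 and Hif1a, chosen after their values were seen. The members and lists were chosen with earlier results of these data known.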

Additional observations from a re-analysis of the deposited data

Results flagged for a closer look

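In 24 sets of 7 values (the CPM of each member in each fraction and its pair differences), 2 held a value far from the others by the gap between it and its neighbour as a share of the whole range. Chance flags about 1 set in 20. Both were Pgf and both came from pair 3. Its level in the IFE library of that pair was 2.15 CPM (64 reads), with the other 6 between 0.445 and 0.752 CPM, and the difference of the pair was 1.30 on the log2 scale, with the other 6 between 2.62 and 3.12. The same IFE library had the highest placode marker sum of the IFE libraries (280 CPM) but the lowest Shh level (1.1 CPM), with Shh between 1.4 and 3.12 CPM in the other 6. The part of placode cells in that value was not tested.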

How the results depend on the processing

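Across 19 alternatives each, Pdgfa (0.46 to 0.54), Pdgfc (0.45 to 0.53), Vegfa (0.35 to 0.58) and Pgf (2.51 to 2.94) stayed higher and past the threshold, and Vegfb (-0.22 to -0.08) stayed lower and short of it. Without the replicate block Vegfc gave -1.06 (edgeR adjusted p = 0.0039), and leaving out the block changed no call of a member. Scalings moved the median of all genes by less than 0.1. Leaving out 1 pair gave -1.29 to -0.85 for Vegfc (edgeR adjusted p 0.00385 to 0.0615), 0 to 1 members called lower and 3 to 5 HIF genes called lower. Among all genes, those fits called 1916 to 2716 lower.

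In the 27-7 pairs alone, with fewer libraries, Pdgfb gave 0.80 and Vegfc -1.14 without passing. There 2331 of 15688 tested genes passed (1226 higher, 1105 lower), against 4786 of 15382 in all pairs (2384 higher, 2402 lower). Beside these counts, 0 members were lower, and 1 HIF gene was higher and 3 lower. In the other pairs alone Vegfc gave -0.97 without passing, and 3087 of 15487 tested genes passed (1547 higher, 1540 lower). Beside these, 0 members were lower, 4 processing genes were higher, and 2 HIF genes were higher and 3 lower. At a threshold of 0.01 Vegfc (-1.05) did not pass, leaving 0 members and 3 HIF genes lower, beside 1603 of all 15382 tested genes. With library size only, 3 HIF genes and 2058 of all 15382 tested genes were lower, a change whose cause was not tested.

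The difference between the sets of pairs turned sign for Pdgfa with library size only (-0.029) and for Vegfc with limma-voom (0.0014). Leaving out 1 pair gave -0.10 to 0.17 for Pdgfa, -0.36 to 0.17 for Pdgfb, -0.11 to 0.057 for Pdgfc, -0.60 to 0.31 for Vegfc and -0.017 to 0.66 for Pgf. Over all alternatives for this difference, with scalings, filters and fits included, 0 of 105 values passed. All 72 alternatives for marker sums kept their call. Depth limits Pdgfd and the kinase receptors, which had at most 41 reads in any library.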
